A study of Homo sapiens with 6 samples.

Results

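Transcripts of 10 microtubule-associated proteins of the mitotic spindle were followed by RNA sequencing in SaOS2 cells with and without induction of p21. They are NUSAP1, HMMR, DLGAP5, CKAP2, CKAP2L, CKAP5, ASPM, TACC3, SPAG5 and NUMA1, chosen by name with earlier results of these data known. All 10 were found by gene symbol among the 23228 rows of the table of normalized counts. SaOS2 (SaOS-2) is a human osteosarcoma line that lacks functional RB and p53, so the cells of both conditions share these losses and the Tet-inducible p21 vector. The 3 p21 OFF libraries came from untreated cells, and the 3 p21 ON libraries came from cells given 1 μg/ml doxycycline for 24 h, the antibiotic that switches the vector on. The cells are a single engineered line, and no library of cells given doxycycline without p21 induction was analysed here, so the drug and p21 cannot be told apart. The methods call the replicates biological, but no source used here says that they came from separate cultures, so p-values measure the spread between these samples, which may be technical.

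The spindle is built from microtubules that are nucleated, lengthened, bundled and focused at the poles by proteins of this kind. Transcripts of many such proteins rise in G2 and mitosis. In resting cells the MuvB complexes DREAM (with p130 or p107 and E2F4) hold such promoters down through a short element named CHR, and in dividing cells MuvB with B-MYB and FOXM1 activates them. p21 inhibits the cyclin-dependent kinases that release DREAM. In the copy of the cell cycle gene lists used here, 8 of the 10 genes stood in the high-stringency G2/M list, DLGAP5 stood in the low-stringency G2/M list alone, and NUMA1 stood in no list.

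The libraries held 12795490 to 21975045 reads on genes, and at least 353 reads lay behind every value of the 10 genes, a counting error of at most 5.32%. CDKN1A, the gene of p21, had 1187 to 1355 normalized counts in p21 OFF libraries and 40470 to 46739 in p21 ON libraries. The osteoblast markers RUNX2, SP7, ALPL and COL1A1 were high in every library, ALPL with 35363 to 38901 normalized counts, whereas SPP1 had at most 2.96 and BGLAP was listed at 0 in all 6. IBSP, a marker of mature osteoblasts, was the only one of the 5 tested osteoblast markers that passed the test, with 129.5 ± 8.66 normalized counts in p21 OFF and 99.0 ± 3.20 in p21 ON libraries (SD, n = 3 each, limma adjusted p = 0.0264). edgeR also called 1 of the 5 lower and DESeq2 called none, and COL1A1 was higher at an unadjusted p under 0.05 alone (limma adjusted p = 0.103). Of 8 markers of epithelial, blood and endothelial cells, 3 were abundant enough to test and none changed by limma, at an unadjusted p under 0.05 or by edgeR or DESeq2. EPCAM, at 291.7 to 374.3 normalized counts, was the highest of the 8, and HBB was listed at 0 in every library. p21 OFF replicate 1 stood apart from the other p21 OFF libraries, with a chi-square per gene of 8.09 and 8.83 against them, where the other replicate pairs gave 2.61 to 3.82 and sampling alone gives about 1.

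The promoters of the set are shown first because most members changed in 1 direction and because such genes are often described by the CHR and CCAAT letters at their start. All 10 genes were matched in the RefSeq promoter table (build GRCh38.p14), which gives 250 bases before and 50 bases after the start of a transcript. A CHR was searched as TTTGAA or as its variant TTCGAA. A box bound by NF-Y was searched as CCAAT, and an E2F site as TTTCCCGC, TTTGGCGC, TTTCGCGC or TTTGCCGC, each on both strands. In the lines below capitals mark CHR and CCAAT matches, on the gene's strand or as the reverse complement (TTCAAA and ATTGG). HMMR and CKAP2L are shown for a CHR just before the start, ASPM for its row of CCAAT boxes and CKAP5 for a CHR beside a CCAAT box. DLGAP5, SPAG5 and NUSAP1 are shown for a CHR just after the start. NUMA1 is shown as a member with a CCAAT box and neither of the CHR spellings searched. Other spellings of the CHR were not searched in any window.
HMMR, chr5:163460542-163460631, plus strand: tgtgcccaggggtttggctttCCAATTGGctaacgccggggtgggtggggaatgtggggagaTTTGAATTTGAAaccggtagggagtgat
CKAP2L, chr2:112764610-112764709, minus strand: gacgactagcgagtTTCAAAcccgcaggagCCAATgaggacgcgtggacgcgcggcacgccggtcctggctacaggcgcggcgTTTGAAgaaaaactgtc
ASPM, chr1:197146670-197146809, minus strand: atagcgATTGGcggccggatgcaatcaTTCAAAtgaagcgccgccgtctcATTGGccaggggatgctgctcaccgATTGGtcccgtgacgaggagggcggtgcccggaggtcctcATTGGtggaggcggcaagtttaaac
CKAP5, chr11:46846281-46846370, minus strand: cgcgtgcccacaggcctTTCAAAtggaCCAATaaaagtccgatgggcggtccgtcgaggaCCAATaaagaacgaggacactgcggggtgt
DLGAP5, chr14:55191568-55191597, minus strand: gctcggtgcggcaagTTTGAAtttcgtgga
SPAG5, chr17:28599010-28599039, minus strand: aggaagcgcagagcaggTTCAAAcacagac
NUSAP1, chr15:41332877-41332906, plus strand: aagagtggcgccagggaTTTGAAccgcgct
NUMA1, chr11:72080543-72080602, minus strand: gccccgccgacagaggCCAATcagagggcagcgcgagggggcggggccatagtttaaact

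CHR letters were present in 7 of the 10 windows, against 16.4% of all 35116 promoters in the table and 11.0% of the 9267 promoters matched to a tested gene. The HMMR promoter holds 2 CHR matches back to back, starting 28 and 22 bases before the start, and its CCAAT match on the gene's strand overlaps one on the opposite strand. CCAAT letters were present in 7 of the 10 windows, against 34.6% of all promoters, and 6 windows (NUSAP1, HMMR, DLGAP5, CKAP2L, CKAP5 and ASPM) held a CHR and a CCAAT match, against 6.38% of all promoters. The only E2F match was in NUSAP1, 174 bases before the start, where 3.31% of all promoters held such a match. Among promoters matched to a tested gene, 36.8% held CCAAT letters, 4.67% a CHR and a CCAAT match, and 5.28% an E2F match. No searched letters were found in the windows of TACC3 and CKAP2, and the CKAP2 window starts at a transcript 510 bases inside the outermost RefSeq start. These matches are a description of the letters and carry no test.

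**Figure D1:**
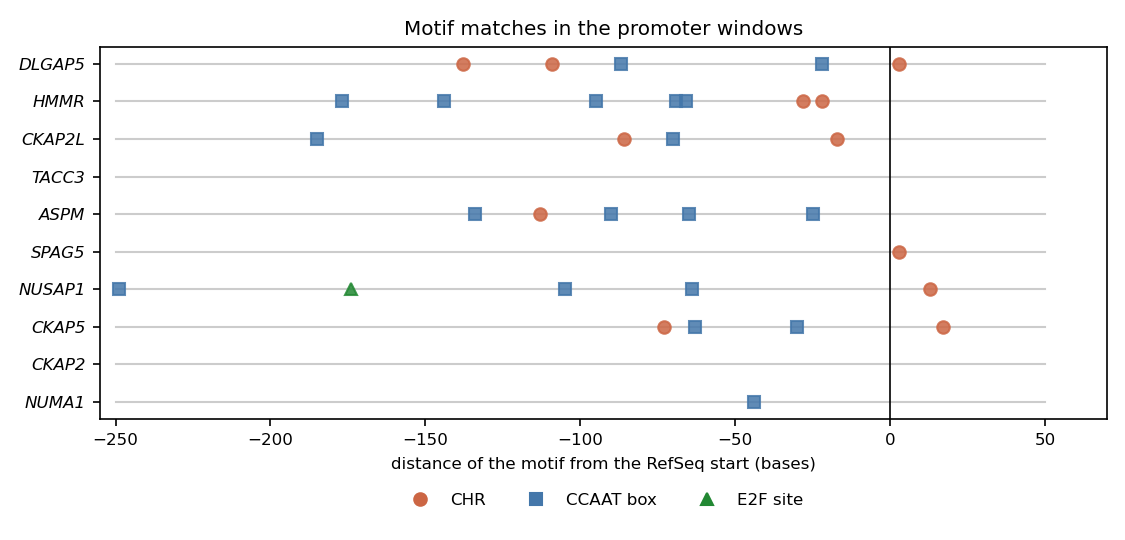
Positions of CHR (circles), CCAAT (squares) and E2F (triangle) matches in the promoter windows of the 10 genes, as distance in bases from the RefSeq start at 0, with genes in order of their log2 fold change. CHR matches lie within 28 bases of the start in 6 genes, DLGAP5, HMMR, CKAP2L, SPAG5, NUSAP1 and CKAP5, and 113 bases before it in ASPM.

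After p21 induction 9 of the 10 spindle transcripts were lower and none was higher (limma on log2(normalized count + 1), adjusted p under 0.05 after Benjamini-Hochberg adjustment over 13255 genes). Over all genes tested, 12.7% were called lower and 10.5% higher, or 1681 and 1393 genes (23.2% in either direction), and scaling by library size alone gave 1194 and 2034. At an unadjusted p under 0.05 no member was higher either, and edgeR and DESeq2 on the recovered reads each called 9 lower and 0 higher. In the 9 genes every p21 ON library lay below every p21 OFF library, where 21.3% of all tested genes did so, and 6 of them fell by more than 1 on the log2 scale, where 1.15% of all genes did. The median log2 fold change of the 10 was -1.22, beside 0.0056 for all genes tested. NUMA1 was the member that did not pass the test. In bulk RNA, fewer cells in G2 and mitosis and less RNA per cell cannot be told apart.

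**Figure D2:**
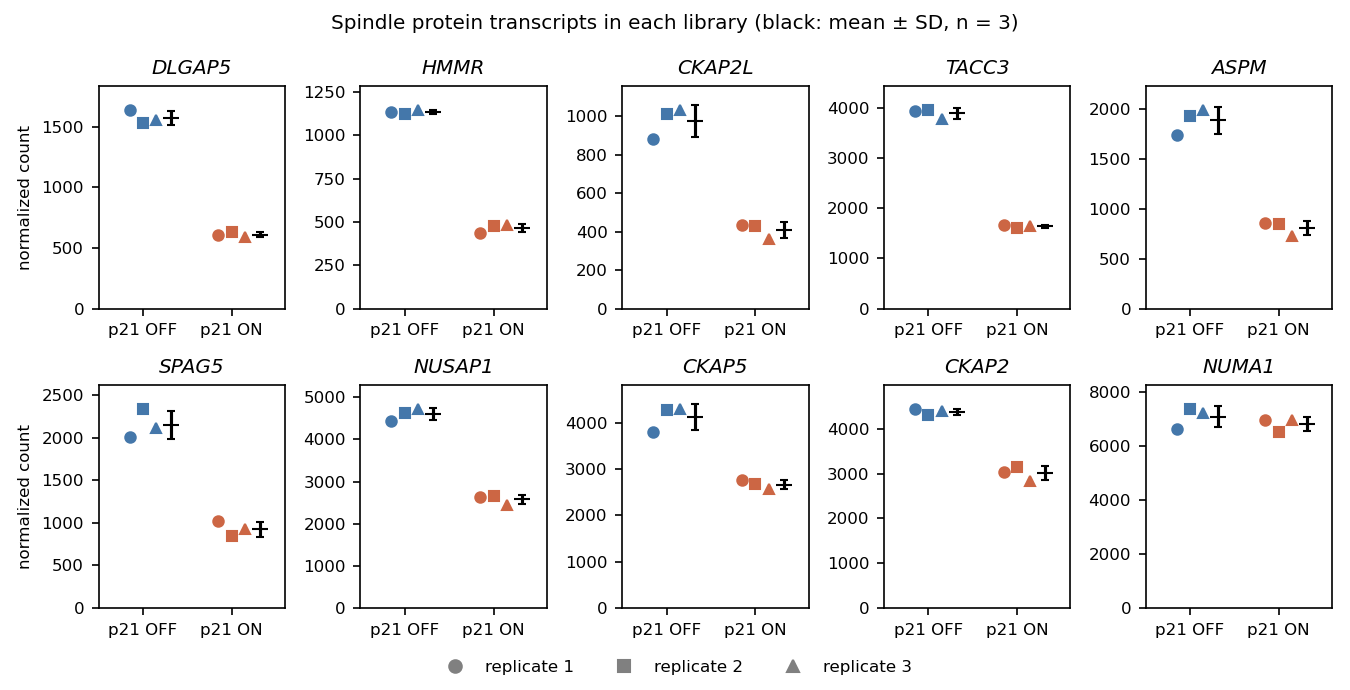
Normalized counts (vertical axes, each from 0) of the 10 transcripts in the 3 p21 OFF (blue) and 3 p21 ON (orange) libraries, 1 symbol per replicate, with the mean ± SD in black. The groups are separate in all panels except that of NUMA1, where p21 ON values of 6511 to 6973 overlap p21 OFF values of 6636 to 7365.

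DLGAP5, also named HURP, binds the microtubules of kinetochore fibres and stabilises them, and it is a substrate of the kinase Aurora A. Its gene lies on chromosome 14 of GRCh37 from 55614830 to 55658326, and no exon of another gene overlaps it. Its normalized counts were 1638, 1526 and 1557 with p21 OFF and 608, 631 and 594 with p21 ON. All p21 ON values were thus far below the lowest p21 OFF value, with little spread in either group. The log2 fold change was -1.36 (standard error, SE, 0.07, limma adjusted p = 5.40e-11), the strongest fall among the members, and 0.415% of the tested genes fell as much or more. The CHR at its start is printed above.

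HMMR (RHAMM) binds the spindle and its poles together with TPX2, the activator of Aurora A on the spindle. Its gene spans chromosome 5 from 162887209 to 162918947. There were 1134, 1121 and 1147 normalized counts with p21 OFF and 438, 478 and 481 with p21 ON. The p21 OFF libraries differed from each other by little, with an SD of 1.16% of the mean. The log2 fold change was -1.28 (SE 0.07, limma adjusted p = 1.70e-10). The difference between DLGAP5 and HMMR in response was -0.08 on the log2 scale, with a 95% interval from -0.26 to 0.11 (adjusted p = 0.354 from limma on the ratio of the 2 genes). HMMR and TPX2 differed by -0.12 in response, with an interval from -0.31 to 0.07 (adjusted p = 0.173). With a library left out, DLGAP5 minus HMMR ranged from -0.12 without p21 ON replicate 1 to -0.03 without p21 ON replicate 3, and it was -0.05 without p21 OFF replicate 1. HMMR minus TPX2 ranged from -0.17 without p21 ON replicate 3 to -0.06 without p21 ON replicate 1. Neither difference passed the threshold in any of these fits.

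TACC3 is an Aurora A substrate that, with clathrin and the protein of CKAP5, forms bridges between the microtubules of kinetochore fibres. It lies on chromosome 4 from 1714585 to 1746898. The p21 OFF libraries had 3936, 3956 and 3765 normalized counts and the p21 ON libraries 1672, 1603 and 1642. The groups lay far apart, with an SD of 105.1 normalized counts among p21 OFF and 34.2 among p21 ON libraries. TACC3 fell by 1.24 on the log2 scale (SE 0.06, limma adjusted p = 4.11e-11). None of the searched letters stood in its promoter window. CLTC, the clathrin heavy chain, had 13563 ± 645 normalized counts with p21 OFF and 13451 ± 486 with p21 ON (SD, n = 3 each). The log2 fold change of CLTC was -0.01 with a 95% interval from -0.14 to 0.12.

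CKAP5 (ch-TOG) is a microtubule polymerase of the XMAP215 family that adds tubulin to growing ends, in the spindle and in interphase. The gene spans chromosome 11 from 46764598 to 46867859. Normalized counts were 3812, 4276 and 4302 with p21 OFF and 2759, 2687 and 2564 with p21 ON. The groups did not overlap, and p21 OFF replicate 1 was the lowest of its group. CKAP5 fell by 0.63 on the log2 scale (SE 0.06, limma adjusted p = 8.39e-07), to 64.6% of its p21 OFF mean. TACC3 fell further than CKAP5, its partner, by 0.62 on the log2 scale (95% interval from -0.83 to -0.40, adjusted p = 0.000548 from limma on their ratio within each library). The log2 ratio of TACC3 to CKAP5 did not overlap between the conditions, and 3 libraries against 3 allow no smaller p than the 0.1 of the exact two-sided permutation test.

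CKAP2 and CKAP2L are paralogs whose proteins bind microtubules at the spindle and its poles. CKAP2L lies on chromosome 2 from 113493926 to 113522241. Its normalized counts were 880, 1009 and 1033 in p21 OFF libraries and 434, 430 and 363 in p21 ON libraries. It was the member with the fewest reads and the widest relative spread, with an SD of 9.78% of the mean in p21 ON libraries, but the groups stayed apart. Its log2 fold change was -1.25 (SE 0.09, limma adjusted p = 3.64e-09). CKAP2 lies on chromosome 13 from 53029564 to 53050763. Its normalized counts were 4442, 4313 and 4397 with p21 OFF and 3041, 3148 and 2842 with p21 ON. This was the smallest of the 9 falls, with a log2 fold change of -0.54 (SE 0.06, limma adjusted p = 2.31e-06). The ratio of CKAP2 to CKAP2L rose by 0.71 on the log2 scale (95% interval from 0.40 to 1.01, adjusted p = 0.000165 from limma on the ratio), with no overlap of the p21 ON and p21 OFF values (p = 0.1 by exact two-sided permutation). CHR letters were found in the CKAP2L window and not in that of CKAP2, which starts 510 bases inside the outermost RefSeq start. Any link of these letters to the difference in response was not tested.

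SPAG5 encodes astrin, which with kinastrin (KNSTRN) holds microtubules at kinetochores and helps to keep sister chromatids together. It lies on chromosome 17 from 26904583 to 26926043. There were 2017, 2340 and 2113 normalized counts in p21 OFF libraries and 1019, 842 and 925 in p21 ON libraries. Even the highest p21 ON value was far below the lowest p21 OFF value. The log2 fold change was -1.22 (SE 0.08, limma adjusted p = 1.07e-09). KNSTRN, which the table lists under the older name C15orf23, fell by 1.46 (SE 0.08, limma adjusted p = 1.20e-10). The difference in response between SPAG5 and KNSTRN was 0.24, with a 95% interval from -0.03 to 0.51 (adjusted p = 0.0727). Without p21 ON replicate 2 the difference was 0.32 and passed the threshold (limma adjusted p = 0.0430), and without p21 ON replicate 1 it was 0.13 (0.232).

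NUSAP1 binds and bundles microtubules close to chromosomes. The gene lies on chromosome 15 from 41612992 to 41673248. With p21 OFF it had 4442, 4629 and 4722 normalized counts and with p21 ON 2625, 2657 and 2446. The 6 values formed separate groups, with an SD of 3.10% and 4.42% of the mean. Its log2 fold change of -0.84 (SE 0.06, limma adjusted p = 5.47e-09) lay between those of the 6 strongest falls and those of CKAP5 and CKAP2. NUSAP1 fell further than CKAP5 by 0.21 (95% interval from -0.39 to -0.03, adjusted p = 0.0323 from limma on the ratio). The unadjusted limma p of this difference was 0.0288, and no adjustment was made over the 7 pairs. That difference no longer passed the threshold without p21 OFF replicate 2 (-0.23, adjusted p = 0.0626), p21 OFF replicate 3 (-0.22, 0.0749), p21 ON replicate 1 (-0.20, 0.0907), its replicate 2 (-0.23, 0.0673) or its replicate 3 (-0.20, 0.0768).

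ASPM and NUMA1 act at the poles, where ASPM holds the minus ends of microtubules and NuMA, the protein of NUMA1, gathers them with the motor dynein. Mutations of ASPM cause primary microcephaly, and NuMA is a nuclear protein in interphase. ASPM lies on chromosome 1 from 197053251 to 197115824. Its normalized counts were 1733, 1926 and 1989 with p21 OFF and 857, 843 and 731 with p21 ON. The groups did not overlap, and the log2 fold change was -1.22 (SE 0.08, limma adjusted p = 8.55e-10). NUMA1 lies on chromosome 11 from 71713910 to 71791739. Its normalized counts were 6636, 7365 and 7233 with p21 OFF and 6973, 6511 and 6966 with p21 ON. Its groups overlapped, and its log2 fold change of -0.05 had a 95% interval from -0.18 to 0.07 (SE 0.06, limma adjusted p = 0.556). In both conditions NUMA1 had the most reads of the 10. ASPM fell further than NUMA1 by 1.16 on the log2 scale (95% interval from -1.39 to -0.93, adjusted p = 0.00061 from limma on the ratio, exact two-sided permutation test p = 0.1). The differences of the other members from NUMA1 were not tested.

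**Figure D3:**
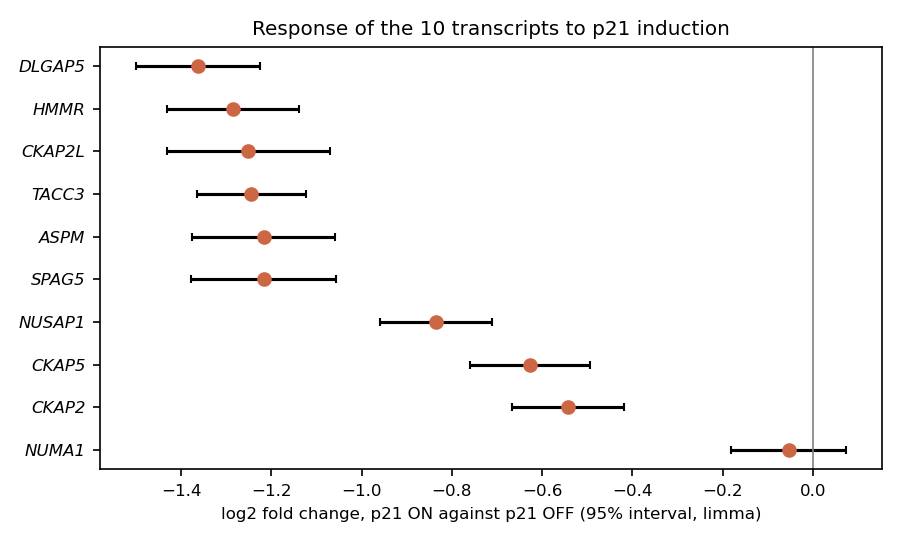
Log2 fold change of each transcript (horizontal axis) in p21 ON against p21 OFF cells, with the 95% interval from limma (bars). DLGAP5, HMMR, CKAP2L, TACC3, ASPM and SPAG5 lie from -1.36 to -1.22, NUSAP1, CKAP5 and CKAP2 from -0.84 to -0.54, and the interval of NUMA1 includes 0.

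**Figure D4:**
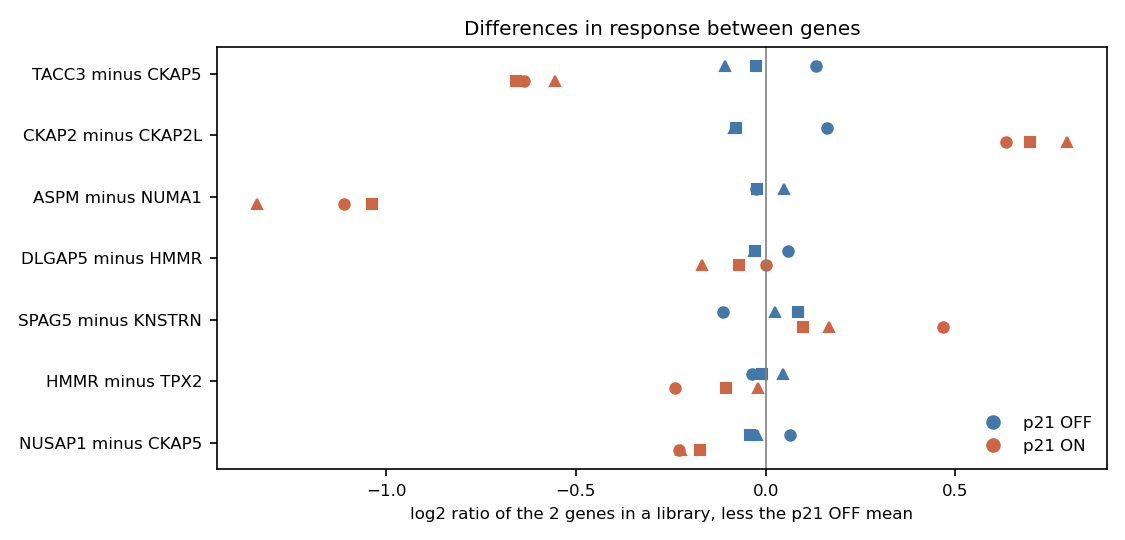
Log2 ratio of 2 genes within each library (horizontal axis), less the mean of the p21 OFF libraries, for the 7 pairs compared, with p21 OFF libraries in blue and p21 ON in orange and 1 symbol per replicate. The groups are separate for TACC3 with CKAP5, CKAP2 with CKAP2L, ASPM with NUMA1, SPAG5 with KNSTRN and NUSAP1 with CKAP5, and they overlap for DLGAP5 with HMMR and HMMR with TPX2. CKAP5, CKAP2L and KNSTRN themselves fell with no overlap of the groups. The share of all genes with a separate ratio to the same reference gene was not counted for any pair.

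The exons of 6 members overlap those of a gene on the opposite strand in GENCODE release 44: OIP5 for NUSAP1, HMMR-AS1 for HMMR, NT5DC4 for CKAP2L, TMEM129 for TACC3, SPAG5-AS1 for SPAG5, and IL18BP, LRRC51, LRTOMT and an unnamed gene for NUMA1. The library kit was a stranded one, but the strand setting of the counting is not given in the sources used here. How reads in the overlapping stretches were assigned to these genes or their partners is thus not known. NUSAP1, TACC3 and SPAG5 also share exon stretches with a gene on their own strand (OIP5-AS1 in the case of NUSAP1).

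Levels were compared between genes per kilobase of the canonical transcript. In p21 OFF cells NUSAP1 was highest with 2032 ± 62.9 normalized counts per kilobase (SD, n = 3 for all values here), followed by TACC3 with 1388 ± 37.6, CKAP2 with 1213 ± 18.0 and NUMA1 with 983 ± 53.9. CKAP5 (576 ± 38.5), SPAG5 (570 ± 43.7) and DLGAP5 (546 ± 20.1) had overlapping values and did not differ beyond their spread. HMMR had 376 ± 4.35, CKAP2L 206.2 ± 17.4 and ASPM 173.3 ± 12.3. In p21 ON cells NUSAP1 was still highest with 1138 ± 50.3, but NUMA1 came next with 947 ± 36.8 then CKAP2 with 833 ± 43.0, while TACC3 had 586 ± 12.2. The lowest were CKAP2L with 86.6 ± 8.47 and ASPM with 74.6 ± 6.37, whose values overlapped. The other 8 genes kept their place in the order of means, and TACC3 went from place 2 to place 4 and NUMA1 from place 4 to place 2.

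The summed level of the 9 genes other than NUMA1 was 24034, 25096 and 25024 normalized counts with p21 OFF and 13452, 13320 and 12587 with p21 ON. Within the groups, p21 ON replicate 3 held the lowest p21 ON value of 6 members, and p21 OFF replicate 1 the lowest p21 OFF value of 6 members. With each library left out in turn, 9 members were called lower every time, with log2 fold changes of DLGAP5 from -1.39 to -1.33 and of CKAP2 from -0.58 to -0.50. Without p21 OFF replicate 1, which stood apart, the log2 fold change of NUMA1 was -0.10 (adjusted p = 0.170 from limma).

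Other factors of spindle assembly were described from a list of 21 genes with roles next to those of the members. By limma 17 were lower and none higher (none at an unadjusted p under 0.05, and none by edgeR or DESeq2), with a median log2 fold change of -1.16. The 17 are 81% of the list, where 12.7% of all genes tested were lower and 10.5% higher. The largest falls were those of SKA1 at -1.59 and SKA3 at -1.47, which couple kinetochores to microtubule ends, and of KIF2C at -1.50, a kinesin that takes microtubules apart. KIF2C had 3327 ± 87.0 normalized counts with p21 OFF and 1177 ± 50.1 with p21 ON (SD, n = 3 each, adjusted p = 1.97e-11 from limma). TPX2 went from 8115 ± 192 to 3622 ± 115 (log2 fold change -1.16). STMN1 (stathmin), which destabilises microtubules, and MAPRE1 (EB1), which tracks their growing ends, were among the smaller falls, at -0.56 and -0.22. CLTC, CLASP1, CLASP2 and MAPRE3 did not pass the test, with log2 fold changes of -0.01, 0.09, -0.20 and 0.09. Of these 4, CLASP2 had p21 ON values all below its p21 OFF values (limma adjusted p = 0.0576). MAPRE3 had p21 ON values of 1066 to 1129, all above its p21 OFF values of 1005 to 1065 (limma adjusted p = 0.326). Over all genes tested, 21.3% lay below and 19.1% above in this way. The number of genes called lower was 18 by edgeR, 18 at an unadjusted p under 0.05 in limma and 17 by DESeq2.

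The partners of NuMA at the cell cortex and the subunits and regulators of dynein made a list of 17 genes, of which 5 were lower, 1 was higher and 11 did not pass the test, with a median log2 fold change of -0.09. This is 29.4% lower and 5.88% higher, beside 12.7% and 10.5% of all genes tested. At an unadjusted p under 0.05 in limma 7 were lower and 2 higher, and edgeR and DESeq2 each called 5 lower and 1 higher. SPDL1 (spindly), which brings dynein to kinetochores and is listed as CCDC99, fell by 1.08 on the log2 scale, and GPSM2 (LGN), which binds NuMA at the cortex, fell by 0.61. GPSM2 had 1115 ± 82.0 normalized counts with p21 OFF and 731 ± 23.0 with p21 ON (SD, n = 3 each, adjusted p = 6.24e-06 from limma). DYNC1I2, DYNC1LI1 and NDE1 were the other 3 called lower, at -0.34, -0.24 and -0.30. FRY, the gene that rose, went from 51.8 ± 4.23 to 82.5 ± 2.70 normalized counts (log2 fold change 0.66, adjusted p = 0.00379).

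Near chromosomes, Ran frees spindle factors such as TPX2, NUSAP1 and DLGAP5 from the importins that bind them. Of 8 genes of this system, 6 were lower and none higher (none at an unadjusted p under 0.05, and none by edgeR or DESeq2), with a median log2 fold change of -0.36. Over all genes tested 12.7% were lower and 10.5% higher. At an unadjusted p under 0.05 in limma 7 of the list were lower, and edgeR and DESeq2 each called 6 lower. KPNA2, an importin alpha, had the strongest fall of the list. Its normalized counts were 7506 ± 284 with p21 OFF and 3774 ± 105 with p21 ON (SD, n = 3 each, log2 fold change -0.99, adjusted p = 3.65e-10 from limma). RANGAP1 fell by 0.68 and RCC1, the exchange factor of Ran on chromatin, by 0.46. KPNB1, importin beta, had 8900 ± 427 and 8768 ± 449 normalized counts (SD, n = 3 each).

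Microtubule-associated proteins of interphase and of neurons were described as a list as well. Of 22 such genes 19 were abundant enough to test, none was lower (none at an unadjusted p under 0.05, and none by edgeR or DESeq2), and 5 were higher, with a median log2 fold change of 0.16. The 5 are 26.3% of the 19, where 10.5% of all genes tested were higher and 12.7% lower. At an unadjusted p under 0.05 in limma 11 were higher, and edgeR called 5 higher and DESeq2 4. MAP1B rose from 69.7 ± 1.94 to 114.9 ± 14.2 normalized counts (SD, n = 3 each, log2 fold change 0.71, adjusted p = 0.0013 from limma) and MAP7D2 from 255.5 ± 9.09 to 397 ± 12.1 (0.63, adjusted p = 2.69e-05). MAP2 rose by 0.45, EML2 by 0.36 and MTUS1 by 0.27. All 5 genes had few reads, with group means from 69.7 to 397 normalized counts. The number called higher was 10 under scaling by library size alone, 8 without p21 OFF replicate 3 and 3 without p21 ON replicate 3. The abundant MAP4, with 10354 ± 906 and 10976 ± 347 normalized counts, did not pass the test.

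Paralogs of members outside the set were looked at in a list of 6 genes, of which 3 were abundant enough to test. TACC1 and TACC2, of the family of TACC3, had log2 fold changes of -0.03 (95% interval from -0.18 to 0.13) and 0.05 (-0.10 to 0.19), and DLGAP4, of the family of DLGAP5, had 0.02 (-0.16 to 0.21). None of the 3 was called by limma, edgeR or DESeq2, and none had an unadjusted p under 0.05. The differences from TACC3 and DLGAP5 were not tested. DLGAP1, DLGAP2 and DLGAP3 had at most 3.49 normalized counts in any library and were not tested.

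**Figure D5:**
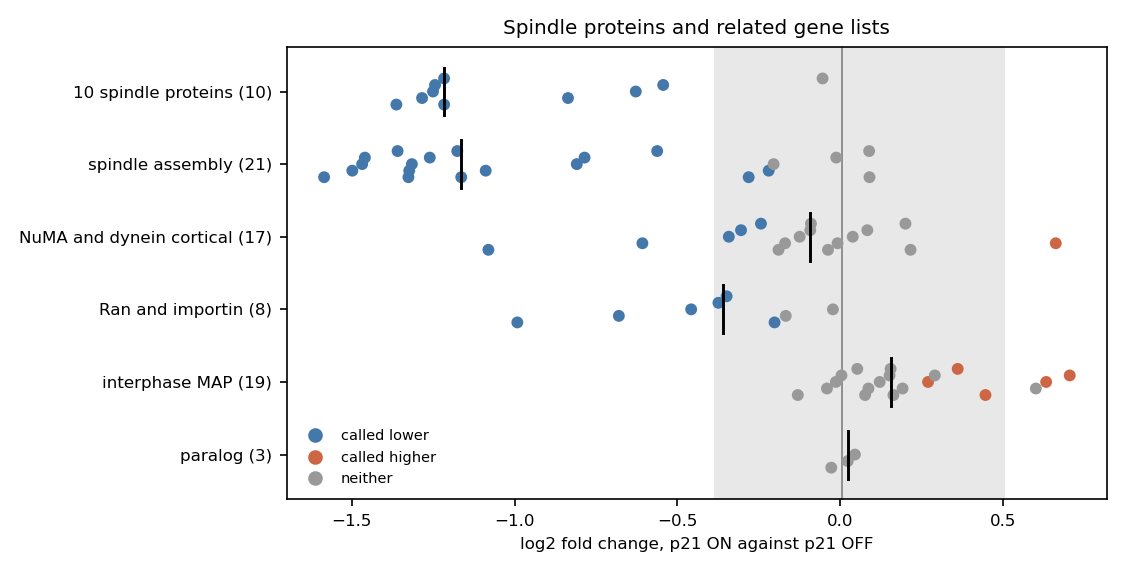
Log2 fold changes (horizontal axis) of the 10 spindle proteins and of the tested genes of 5 related lists (number of genes in brackets), 1 point per gene, with the list median as a black bar, the median of all genes as a grey line and the 5th to 95th percentile of all genes (-0.39 to 0.50) shaded. The medians are -1.22 for the spindle proteins and -1.16 for the spindle assembly list, and 0.16 for the interphase list.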

How the data were processed

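Libraries of poly(A) RNA from 6 samples were read from a table of normalized counts. The authors used STAR for mapping to hg19, HTSeq for counting and DESeq2 for size factors, and the deposited values are counts divided by those factors, a signal per gene and library. Versions and the strand setting are not given in the sources used here. The smallest step of a library gave whole reads for 100% of its values (tolerance 0.001). The planned test was limma 3.58.1 (R 4.3.3, trend) on log2(normalized count + 1) with no covariate. It took in 13255 genes whose mean reached 10, and calls used a Benjamini-Hochberg adjusted p under 0.05. All fold changes are on this scale and understate those of low genes. Differences between 2 genes were tested by the same fit, without trend, on each gene's log2 value less that of the reference gene. Their p-values were adjusted over all genes for each reference gene and not over the 7 pairs. edgeR 4.0.16 and DESeq2 1.42.0 on the recovered reads, scalings, pseudocounts, filters, thresholds, a replicate block and left-out libraries were the alternatives. Scripts were tested on simulated data. edgeR called 1401 genes higher and 1647 lower. Named genes were the 10 members, the genes of the 7 pairs and the 3 largest called changes of each list, and genes named beyond these were chosen after their values were seen. The members and lists were chosen with earlier results of these data known. List genes were matched by symbol, and 4 by an older symbol. Gene positions were taken from the GRCh37 lift (hg19) of GENCODE release 44, promoters from RefSeq on GRCh38.p14. The 26 rows named by a date were not matched to genes.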

Additional observations from a re-analysis of the deposited data

How the results depend on the processing

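All 9 falls kept their direction and call under the alternatives run, except that a log2 fold change of at least 1 removed NUSAP1, CKAP2 and CKAP5 by its own threshold; NUMA1 stayed below 0 and uncalled in each. Over all genes the numbers called lower and higher were 503 and 254 with no filter, 882 and 616 at an adjusted p under 0.01, 152 and 48 with a log2 fold change of at least 1, and with a library left out 888 to 1662 and 692 to 1488, lowest without p21 ON replicate 1 and next without p21 ON replicate 3 (1076 and 739). In the NuMA and dynein list 2 genes were lower with no filter and 1 with a log2 fold change of at least 1, and 2 were higher under library-size scaling, 0 with a mean of at least 100, 0 with a log2 fold change of at least 1, and 1 to 2 with a library left out (2 without p21 OFF replicate 2). The Ran list had 0 lower with a log2 fold change of at least 1. In the interphase list the number higher was 10 under library-size scaling, 2 with no filter, 3 at an adjusted p under 0.01, 0 with a log2 fold change of at least 1, and 3 to 8 with a library left out. SPAG5 minus KNSTRN (0.24) passed (adjusted p = 0.0321) under the filter of 100 and ranged from 0.13 to 0.32 with a library left out; NUSAP1 minus CKAP5 ranged from -0.23 to -0.18. The replicate block gave adjusted p = 0.127 for NUSAP1 minus CKAP5 (-0.21) and changed no other call of a member or pair. Same-numbered libraries correlated at -0.057, -0.025 and -0.048 across genes in their deviations from the group means. No shared effect of a replicate number was thus seen, but the sources used here do not say whether same-numbered samples were prepared together. The block called 1407 genes higher and 1513 lower. The cause of these changes was not tested. The 3 libraries a group limit an exact test to p = 0.1.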
